A study of Mus musculus with 4 samples.

Results

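The RNA exosome and the machinery that cleaves and polyadenylates pre-mRNA were examined through 30 genes listed by name, all of which were in the table of 20027 genes and among the 11197 that passed the filter on low values (1 RPKM or more in any 2 of the libraries). The list held 11 exosome subunits (Exosc1 to Exosc10 and Dis3), 17 cleavage and polyadenylation factors, and the 5′ to 3′ exonucleases Xrn1 and Xrn2. Their RNA was measured in fibroadipogenic progenitors (FAPs), the interstitial mesenchymal cells of skeletal muscle, sorted without culture from hind limb as Sca1-positive cells lacking CD31, CD45, and Vcam1. The study asked what Bap1, a nuclear deubiquitinase, controls in these cells. The groups were cKO, Prx1-Cre;Bap1f/f conditional knockout mice (2 libraries), and WT (2 libraries), all male and on a C57BL/6 background. The mice were 1.5 weeks old. Prx1-Cre is active in limb mesenchyme, from which limb cartilage and tendon arise as well as FAPs. The titles of the WT libraries also name Prx1-Cre, whereas the study describes floxed mice as its controls, so the genotype of the WT group is unclear. Titles number the males within each genotype, and p-values measure the spread between these libraries. The values of each group are given below in the order of replicates 1 and 2.

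The RNA exosome is a barrel of ring subunits topped by RNA-binding cap subunits, and it degrades or trims RNA from the 3′ end. In mammals the ring itself has no nuclease activity, which comes from the attached enzymes Exosc10 and Dis3. Cleavage and polyadenylation ends a pre-mRNA: CPSF reads the poly(A) signal and cuts, CstF and CFIm bind flanking elements, CFIIm couples cleavage to termination, poly(A) polymerase adds the tail, and Xrn2 degrades the RNA left on the polymerase.

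Most of these genes stood higher in cKO FAPs. Of the 30, 16 were higher and 0 lower at a limma adjusted p under 0.05 (53.3% higher), beside 35.9% of all tested genes higher and 6.48% lower in the same comparison. The unadjusted limma p was 0.0843 for Pcf11 and 0.842 for Cpsf3, the genes with log2 fold changes below 0. The median log2 fold change of the 30 was 0.52, against 0.27 over all tested genes, and 24 of the 30 lay above the median gene. Among exosome subunits 8 of 11 were higher, with a median log2 fold change of 0.77, and among cleavage and polyadenylation factors 7 of 17, with a median of 0.39. Xrn2 rose and Xrn1 did not pass. The 2 groups of libraries did not overlap for 25 of the 30 genes, 24 of them with cKO higher, beside 72.3% and 56.8% of tested genes. Without WT replicate 2, 10 of the 30 remained past the threshold (5 exosome subunits and 4 cleavage and polyadenylation factors), beside 21.8% of tested genes higher. In bulk RNA, more cells of a type with a high level and more RNA of these genes per cell cannot be told apart. With 2 libraries a group, the smallest two-sided p that exact permutation allows is 0.333, so each call rests on a spread pooled across genes.

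**Figure D1:**
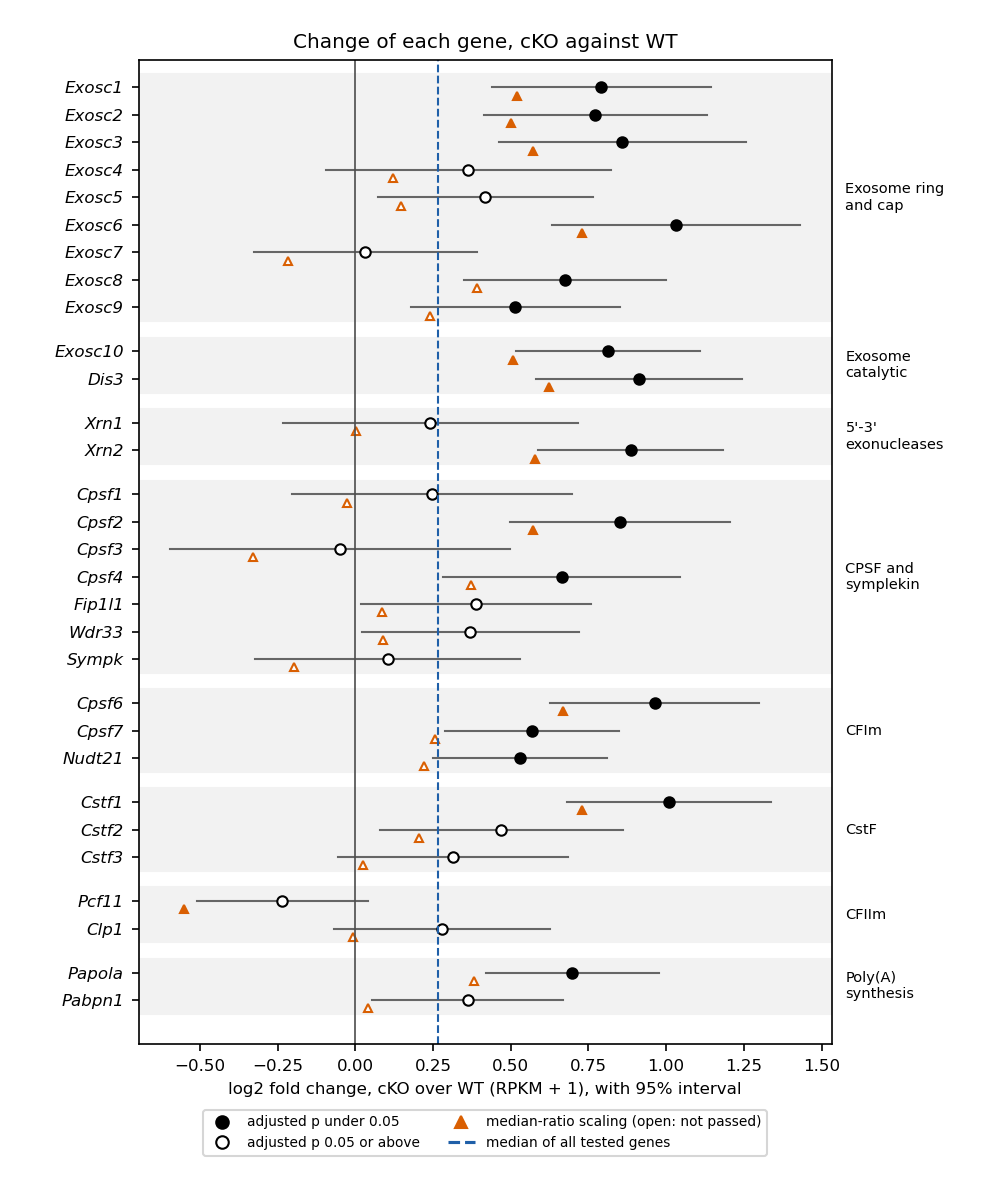
Log2 fold change, cKO over WT, of the 30 genes on the log2(RPKM + 1) scale with 95% intervals (circles, filled where the adjusted p was under 0.05) and after median-ratio scaling (triangles), grouped by complex. The dashed line is the median of all tested genes at 0.27: 24 genes lie above it, and Pcf11 and Cpsf3 are the 2 below 0.

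The promoters of 4 genes are shown as examples. Dis3, Xrn2, and Cstf1 were among the genes that kept their call in all alternatives. Pcf11 was the gene whose cKO values lay wholly below WT. All 4 were picked after their values were seen. Each runs 5′ to 3′ along the gene's own strand from 250 bases before to 50 after the RefSeq start (GRCm38.p6). Capitals mark matches, on either strand, to the E-box CACGTG, the ETS core CCGGAAG, the CCAAT box CCAAT, the GC box GGGCGG, or the YY1 core GCCGCCAT.
Dis3 (chr14:99099721-99100020, minus strand): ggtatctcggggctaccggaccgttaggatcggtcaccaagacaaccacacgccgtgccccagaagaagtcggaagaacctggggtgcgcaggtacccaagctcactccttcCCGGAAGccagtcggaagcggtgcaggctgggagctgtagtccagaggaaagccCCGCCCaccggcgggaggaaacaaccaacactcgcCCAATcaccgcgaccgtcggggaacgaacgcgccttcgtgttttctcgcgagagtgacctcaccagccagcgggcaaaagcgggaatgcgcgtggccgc
Xrn2 (chr2:147012749-147013048, plus strand): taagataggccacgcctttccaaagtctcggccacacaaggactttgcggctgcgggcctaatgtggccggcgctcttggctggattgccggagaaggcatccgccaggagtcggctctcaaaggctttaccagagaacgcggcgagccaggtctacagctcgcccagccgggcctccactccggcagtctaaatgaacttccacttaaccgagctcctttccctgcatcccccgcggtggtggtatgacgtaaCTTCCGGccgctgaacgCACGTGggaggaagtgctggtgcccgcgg
Cstf1 (chr2:172370753-172371052, plus strand): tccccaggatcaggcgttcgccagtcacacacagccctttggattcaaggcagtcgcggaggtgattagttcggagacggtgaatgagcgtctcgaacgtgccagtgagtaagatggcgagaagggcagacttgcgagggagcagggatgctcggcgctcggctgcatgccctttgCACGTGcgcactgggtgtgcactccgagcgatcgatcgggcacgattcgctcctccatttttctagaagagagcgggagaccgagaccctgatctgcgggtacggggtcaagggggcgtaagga
Pcf11 (chr7:92669863-92670162, minus strand): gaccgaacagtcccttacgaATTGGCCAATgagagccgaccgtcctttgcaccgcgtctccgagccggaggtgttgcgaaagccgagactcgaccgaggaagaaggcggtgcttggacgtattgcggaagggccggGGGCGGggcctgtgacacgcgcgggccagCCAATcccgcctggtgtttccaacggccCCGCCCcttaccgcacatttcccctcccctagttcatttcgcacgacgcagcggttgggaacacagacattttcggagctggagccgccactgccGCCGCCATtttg
No motif was common to the 3 promoters of genes that rose: Xrn2 and Cstf1 each held an E-box, Dis3 and Xrn2 an ETS core, and Dis3 alone of the 3 a GC box and a CCAAT box. Pcf11 held 3 CCAAT boxes, 2 of which adjoin on opposite strands as a palindrome, 2 GC boxes, and a YY1 core.

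Promoter sequences were found for 26 of the 30 genes, 15 of which were higher in cKO. All 26 were searched on both strands, with overlapping matches allowed. A GC box lay in 17 promoters (65.4%, beside 67.1% of the 8778 tested genes with a promoter), in 8 of 15 of the higher genes and 9 of 11 of the others. The CCAAT box lay in 9 (34.6%, beside 38.1%) and the E-box in 3 (11.5%, beside 10.5%). The ETS core lay in 7 (26.9%, beside 18.5%), namely Exosc3, Dis3, Xrn2, Cpsf3, Cpsf7, Nudt21, and Cstf3, of which 5 were higher in cKO. The YY1 core lay in 5 (19.2%, beside 5.47%), Exosc6, Cpsf2, Sympk, Pcf11, and Pabpn1, of which 2 were higher. The palindromic NRF1 motif lay in 2 (7.69%, beside 2.12%), Exosc5 and Fip1l1, neither of which passed. Neither the TATA box TATAAA nor the cAMP response element TGACGTCA lay in any of the 26, beside 6.80% and 3.35% of tested genes. GC content was like that of other tested genes, with a median of 62.5% beside 61.7%. These matches describe letters in a window, and no test was run on them.

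Depth, estimated from the lowest values of the table, was 41.4 to 90.4 M reads per library, and between 131.7 (Exosc7) and 15837 (Pcf11) reads stood behind a value of the 30 genes. Bap1 stood at 14.2 and 15.3 RPKM in cKO and at 13.95 and 12.86 RPKM in WT libraries (limma adjusted p = 0.443), and since a floxed deletion removes only some exons, this does not check the genotype labels on which every direction here rests. Smn1, the gene of the study's question, rose with a log2 fold change of 1.11 (limma adjusted p = 0.00277). The sorted type was present in both groups, but 7 of 10 FAP markers were lower in cKO, Pdgfra and Ly6a among them. The summed level of the 10 was 13271 to 14674 RPKM in cKO and 28946 to 30839 RPKM in WT. Much of it came from 2 collagen genes. Col3a1 stood at 6057 and 5733 RPKM in cKO, against 16567 and 15075 RPKM in WT. Col1a1 stood at 3254 and 2212 RPKM in cKO, against 6910 and 6640 RPKM in WT. The FAP markers that did not pass were Dcn (log2 fold change 0.22), Lum (-0.12), and Cxcl14 (-0.01). Ly6a, which encodes Sca1, stood at 108.4 and 47.0 RPKM in cKO, against 216.4 and 119.7 RPKM in WT (log2 fold change -1.16, limma adjusted p = 0.0480). All 10 chondrocyte markers (summed 2045 to 2378 RPKM in cKO, 28.0 to 36.1 RPKM in WT), all 6 tenocyte markers (1382 to 1641 RPKM in cKO, 177 to 189.5 RPKM in WT), and 7 of 8 smooth muscle and pericyte markers (332.9 to 440.2 RPKM in cKO, 48.1 to 67.4 RPKM in WT) were higher. Of 10 genes of proliferating cells 8 were higher (130.8 to 154.7 RPKM in cKO, 101.8 to 102.0 RPKM in WT). All 4 perineurial markers (116.1 to 158.9 RPKM in cKO, 37.2 to 39.9 RPKM in WT) and all 5 tested Schwann cell markers (33.8 to 42.4 RPKM in cKO, 13.6 to 16.1 RPKM in WT) were higher too, and 5 of 6 tested myofiber markers were lower (21.6 to 23.1 RPKM in cKO, 62.6 to 84.8 RPKM in WT). Each sum in this paragraph covers every gene listed for a cell type, also those not tested. Lists of the lineages sorted out were mixed. Of 4 tested hematopoietic markers Lyz2 and Cd14 were higher while Ptprc stayed below 0.3 RPKM in every library. Of 3 tested muscle stem cell markers Itga7 was higher and Vcam1 lower while Pax7 stayed below 0.3 RPKM. Of 4 tested endothelial markers Cdh5 was higher, and Tek (log2 fold change -0.42) and Emcn (0.39) did not pass. Pecam1, which encodes CD31, did not pass either, at 0.54 and 1.63 RPKM in cKO, against 1.67 and 3.12 RPKM in WT (log2 fold change -0.72, limma adjusted p = 0.0888). The summed levels of these lists were 11.1 to 16.3 RPKM in cKO and 9.84 to 10.96 RPKM in WT for hematopoietic markers. They were 50.2 to 64.8 RPKM in cKO and 39.0 to 39.2 RPKM in WT for muscle stem cell markers. For endothelial markers they were 26.3 to 29.1 RPKM in cKO and 26.8 to 28.9 RPKM in WT. The part of these shifts in the values of exosome and end processing genes was not tested.

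The cap of the exosome, which threads RNA into the barrel, rose as a whole. Exosc1 stood at 6.50 and 7.53 RPKM in cKO libraries, against 3.67 and 3.57 RPKM in WT libraries (log2 fold change 0.79 ± 0.15 SE, limma adjusted p = 0.00597). Exosc2 stood at 6.73 and 6.71 RPKM in cKO, against 3.86 and 3.20 RPKM in WT (log2 fold change 0.77, limma adjusted p = 0.00689). Exosc3 stood at 10.3 and 10.6 RPKM in cKO, against 4.50 and 6.23 RPKM in WT (log2 fold change 0.86, limma adjusted p = 0.00679). For all 3 cap genes the lower cKO library lay above the higher WT library, and the WT replicates of Exosc3 differed more than its cKO replicates. Exosc2 was the only cap gene to lose its call in any alternative, at an adjusted p of 0.0583 without WT replicate 2.

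The ring was uneven. Exosc6, a ring subunit encoded in a single exon, rose to 16.1 and 21.3 RPKM in cKO, against 9.39 and 7.80 RPKM in WT (log2 fold change 1.03 ± 0.17 SE, limma adjusted p = 0.00366). Exosc8, another ring subunit, stood at 8.56 and 8.63 RPKM in cKO, against 5.12 and 4.90 RPKM in WT (log2 fold change 0.68, limma adjusted p = 0.00788). Exosc9, the ring subunit known as an autoantigen in scleroderma overlap disease, stood at 6.46 and 6.17 RPKM in cKO, against 4.16 and 4.08 RPKM in WT (log2 fold change 0.51, limma adjusted p = 0.0242). These 3 ring genes passed, each with tight replicates except Exosc6 in cKO, whose SD was 3.68 RPKM. Exosc5 missed the threshold with groups that did not overlap, at 6.23 and 5.57 RPKM in cKO, against 4.07 and 4.24 RPKM in WT (log2 fold change 0.42, limma adjusted p = 0.0551). Exosc4 gave 4.10 and 2.92 RPKM in cKO, against 2.11 and 2.87 RPKM in WT, where cKO replicate 2 and WT replicate 2 nearly met (limma adjusted p = 0.172). Exosc7 was level, at 3.45 and 3.02 RPKM in cKO, against 3.09 and 3.17 RPKM in WT, with the cKO values on either side of WT (log2 fold change 0.03, 95% interval -0.33 to 0.39, limma adjusted p = 0.883). The highest of the 9 ring and cap genes stood 5.79-fold above the lowest in cKO (Exosc6 over Exosc7) and 3.45-fold in WT (Exosc6 over Exosc4), on group means of RPKM. Both spreads rest on Exosc6, whose value is uncertain because its transcript lies within an exon of Aars, as given below.

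Both catalytic subunits rose. Exosc10, the nuclear distributive exonuclease, stood at 20.6 and 21.0 RPKM in cKO, against 11.99 and 10.84 RPKM in WT (log2 fold change 0.81 ± 0.13 SE, limma adjusted p = 0.00296). Dis3, the processive exonuclease that also carries an endonuclease domain, stood at 10.98 and 12.43 RPKM in cKO, against 5.56 and 5.92 RPKM in WT (log2 fold change 0.91 ± 0.14 SE, limma adjusted p = 0.00296). Both were clearly apart between groups, and both passed in each of the 15 alternatives. Exosc10 had the highest level of the 11 exosome genes in both groups, 20.8 ± 0.263 RPKM in cKO and 11.4 ± 0.810 RPKM in WT (SD, n = 2 each). The Exosc10 to Dis3 ratio within a library was 1.88 and 1.69 in cKO and 2.16 and 1.83 in WT, ranges that overlapped.

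**Figure D2:**
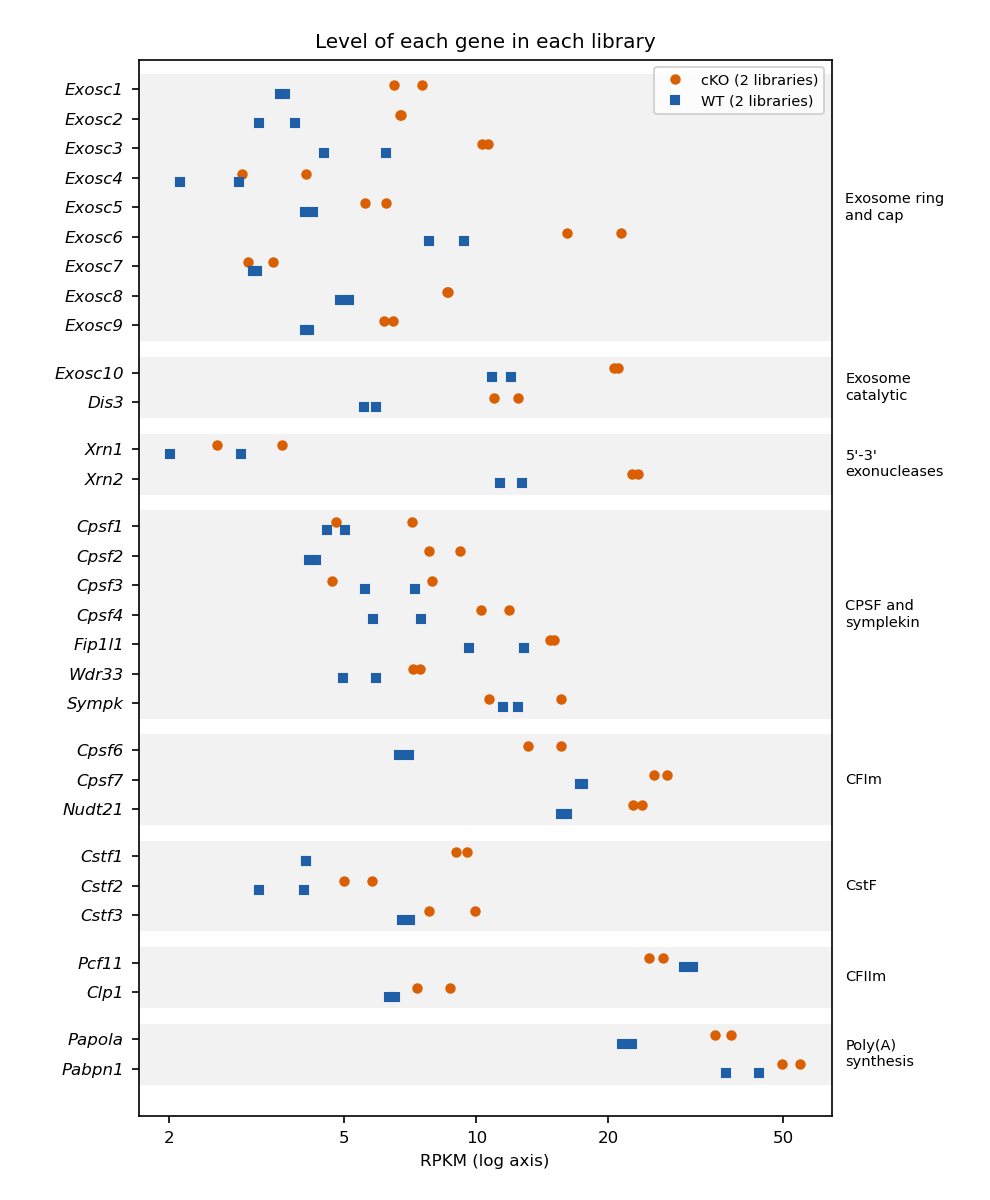
RPKM of the 30 genes in each library (log axis), with cKO libraries as circles and WT libraries as squares, grouped by complex. The groups do not overlap for 25 genes; Exosc7, Xrn1, Cpsf1, Cpsf3, and Sympk are the 5 that do.

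Some exosome genes share exon sequence with a neighbor, and whether strand was used in counting was not given in the sources used here. The Exosc6 transcript (chromosome 8, 111056339 to 111057664, plus strand, GRCm38) lies with all of its 1326 bases inside an annotated exon of Aars, the alanyl-tRNA synthetase gene, on the same strand. Aars stood at 48.5 and 62.5 RPKM in cKO, against 31.1 and 28.2 RPKM in WT (log2 fold change 0.87, limma adjusted p = 0.00405), so the reads of Exosc6 and Aars cannot be told apart and the value of Exosc6 is uncertain. Exosc9 shares 378 bases, 23.4% of its transcript, with Ccna2 on the other strand, and Ccna2, a cyclin gene, was also higher (log2 fold change 0.70, limma adjusted p = 0.0145). Exosc4 shares 13.1% of its transcript with Oplah, which did not pass. Of the 30 genes, 10 share exon bases with another protein-coding gene, and 63.2% of the Pabpn1 transcript is annotated as a readthrough gene too. Of these 10 genes 5 were higher in cKO, and of the 20 with no such overlap 11 were, beside 35.9% of all tested genes. The part of shared exon bases in these values was not tested.

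The 5′ to 3′ exonucleases parted. Xrn2, which degrades nascent RNA downstream of the poly(A) site in the nucleus, stood at 23.4 and 22.6 RPKM in cKO, against 11.3 and 12.7 RPKM in WT (log2 fold change 0.89 ± 0.13 SE, limma adjusted p = 0.00233). Xrn1, which degrades decapped mRNA in the cytoplasm, gave 3.61 and 2.56 RPKM in cKO, against 2.01 and 2.91 RPKM in WT (log2 fold change 0.24, 95% interval -0.23 to 0.72, limma adjusted p = 0.371). The Xrn2 groups were far apart, whereas the higher WT value of Xrn1 lay between its cKO values. The Xrn2 to Xrn1 ratio within a library was 6.48 and 8.83 in cKO and 5.64 and 4.37 in WT. Xrn1 had the lowest mean of the 30 genes in both groups.

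In CPSF and symplekin, which recognize the poly(A) signal and cut the RNA, 2 of 7 genes rose. That share of 28.6% was below the 35.9% of all tested genes that were higher. Cpsf2, the catalytically inactive partner of the endonuclease, stood at 7.78 and 9.19 RPKM in cKO, against 4.32 and 4.16 RPKM in WT (log2 fold change 0.85 ± 0.15 SE, limma adjusted p = 0.00459). Cpsf4, a zinc finger subunit that contacts the poly(A) signal, stood at 10.3 and 11.9 RPKM in cKO, against 7.47 and 5.81 RPKM in WT (log2 fold change 0.66, limma adjusted p = 0.0152). Cpsf3, the endonuclease itself, gave 7.94 and 4.69 RPKM in cKO, against 5.59 and 7.26 RPKM in WT (log2 fold change -0.05, 95% interval -0.60 to 0.50, limma adjusted p = 0.886). The cKO values of Cpsf3 thus lay outside both WT values, 1 on each side, and the Cpsf2 to Cpsf3 ratio was 0.981 and 1.96 in cKO and 0.773 and 0.574 in WT. Cpsf1, the large scaffold subunit, gave 7.14 and 4.79 RPKM in cKO, against 4.56 and 5.02 RPKM in WT (limma adjusted p = 0.336). Sympk, encoding symplekin, which bridges CPSF and CstF, gave 15.6 and 10.7 RPKM in cKO, against 11.5 and 12.5 RPKM in WT (limma adjusted p = 0.675). In these 3 genes cKO replicate 1 was over 0.5 log2 units above cKO replicate 2. Between cKO libraries, no other of the 30 genes had a gap over 0.5 in either direction, beside 18.6% of all tested genes. Xrn1 and Exosc4 lay just under it, with log2 ratios of cKO replicate 2 over cKO replicate 1 of -0.494 and -0.488. The estimated depth was 90.4 M reads in cKO replicate 1 and 41.4 M in cKO replicate 2. Fip1l1, which recruits poly(A) polymerase, gave 14.72 and 15.05 RPKM in cKO, against 9.64 and 12.8 RPKM in WT (limma adjusted p = 0.0848). Wdr33, which binds the poly(A) signal with Cpsf4, gave 7.17 and 7.46 RPKM in cKO, against 4.98 and 5.91 RPKM in WT (limma adjusted p = 0.0830). Both had groups that did not overlap and missed the threshold.

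All 3 genes of CFIm, which binds upstream of the poly(A) site and takes part in the choice between sites, rose. Of all tested genes 35.9% were higher. Cpsf6, its larger serine/arginine-rich subunit, stood at 13.1 and 15.6 RPKM in cKO, against 7.04 and 6.67 RPKM in WT (log2 fold change 0.96 ± 0.14 SE, limma adjusted p = 0.00261). Cpsf7, the alternative large subunit, stood at 25.3 and 27.2 RPKM in cKO, against 17.5 and 17.2 RPKM in WT (log2 fold change 0.57, limma adjusted p = 0.00851). Nudt21, the RNA-binding small subunit, stood at 23.8 and 22.8 RPKM in cKO, against 15.6 and 16.1 RPKM in WT (log2 fold change 0.53, limma adjusted p = 0.0111). No cKO value of any of the 3 overlapped WT. The balance of the large subunits differed between groups: the Cpsf6 to Cpsf7 ratio was 0.518 and 0.572 in cKO, above 0.402 and 0.386 in WT, and the Cpsf6 to Nudt21 ratio was 0.551 and 0.683 in cKO and 0.452 and 0.414 in WT.

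In CstF, which binds downstream of the cleavage site, 1 of 3 genes rose (33.3%), beside 35.9% of all tested genes higher. Cstf1, its WD-repeat subunit, stood at 9.01 and 9.50 RPKM in cKO, against 4.10 RPKM in each WT library (log2 fold change 1.01 ± 0.14 SE, limma adjusted p = 0.00208, the smallest of the 30 genes). Cstf2, the X-linked RNA-binding subunit, gave 5.777 and 5.004 RPKM in cKO, against 3.20 and 4.05 RPKM in WT (log2 fold change 0.47, limma adjusted p = 0.0555). Cstf3, the bridging subunit, gave 7.80 and 9.96 RPKM in cKO, against 7.05 and 6.76 RPKM in WT (log2 fold change 0.31, limma adjusted p = 0.149). Neither Cstf2 nor Cstf3 overlapped between groups, but their replicates spread more than those of Cstf1. The Cstf1 to Cstf3 ratio was 1.15 and 0.954 in cKO, against 0.581 and 0.606 in WT.

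Neither gene of CFIIm passed. Pcf11 (chromosome 7, 92643543 to 92669934, minus strand, GRCm38), which binds the RNA polymerase II tail and promotes termination, was the gene with both cKO values below WT, at 24.8 and 26.6 RPKM in cKO, against 31.1 and 29.7 RPKM in WT (log2 fold change -0.23, 95% interval -0.51 to 0.04, limma adjusted p = 0.147). Clp1, an RNA kinase that also belongs to the tRNA splicing endonuclease complex, gave 8.72 and 7.32 RPKM in cKO, against 6.51 and 6.31 RPKM in WT (log2 fold change 0.28, limma adjusted p = 0.169). These partners leaned in opposite directions, and the Pcf11 to Clp1 ratio was 2.84 and 3.63 in cKO, below 4.78 and 4.70 in WT. Pcf11 lay 0.50 log2 units below the change of the median gene. After median-ratio, quantile, or cyclic loess scaling, which bring the median gene to about 0, it passed as lower, with log2 fold changes of -0.55, -0.62, and -0.60 (limma adjusted p = 0.0230, 0.00865, and 0.00873).

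Of the genes of tail synthesis, Papola rose, and Pabpn1 had the highest mean of the 30 genes in both groups. Papola, the canonical nuclear poly(A) polymerase, stood at 35.0 and 37.9 RPKM in cKO, against 22.7 and 21.5 RPKM in WT (log2 fold change 0.70 ± 0.12 SE, limma adjusted p = 0.00400). Pabpn1, which coats the growing tail and sets its length, gave 49.8 and 54.6 RPKM in cKO, against 44.0 and 37.1 RPKM in WT (log2 fold change 0.36, limma adjusted p = 0.0599). Neither gene overlapped between groups. Papola stood above Pcf11 in each cKO library and below it in each WT library, with ratios of 1.41 and 1.43 in cKO and 0.728 and 0.725 in WT, and the replicates of both groups lay close together.

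**Figure D3:**
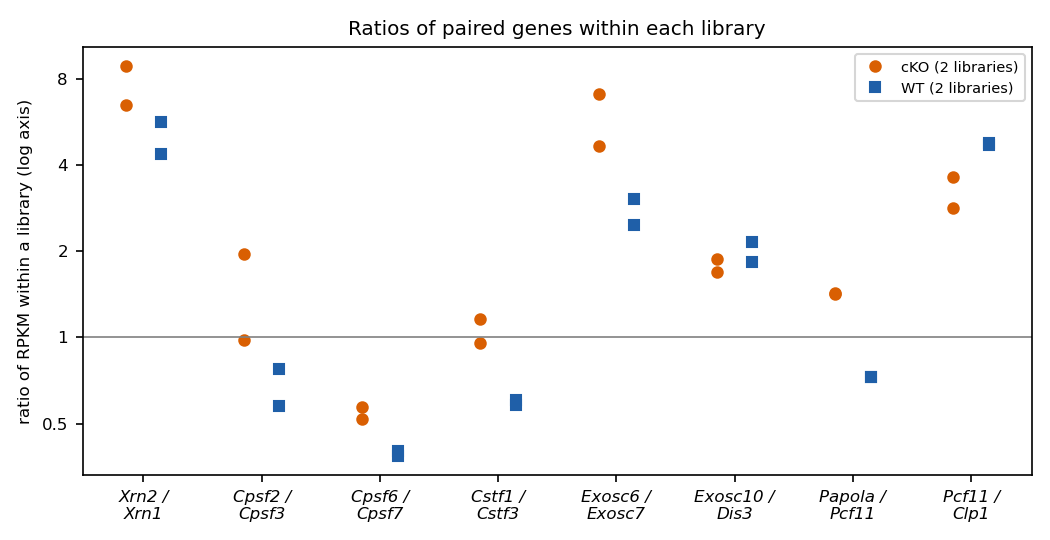
Ratio of the RPKM of paired genes within each library (log axis), with cKO as circles and WT as squares. Papola to Pcf11 is above 1 in both cKO libraries (1.41 and 1.43) and below 1 in both WT libraries (0.728 and 0.725), and Exosc10 to Dis3 is the plotted pair whose groups overlap.

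The ratios within a library are free of scaling between libraries, since any common factor cancels, and they were described without a test. Of 11 pairs computed, 9 had ratios that did not overlap between groups, and 2 overlapped, Exosc10 to Dis3 and Exosc6 to Exosc4 (3.93 and 7.30 in cKO, 4.44 and 2.71 in WT). The pairs were chosen with the values of their genes known, so their number says nothing of how often other pairs of genes would overlap.

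Exosome subunits and cleavage and polyadenylation factors were then set side by side. The median log2 fold change of exosome subunits exceeded that of cleavage and polyadenylation factors by 0.38, and lay 0.51 above the median gene, against 0.12 for cleavage and polyadenylation factors. Leaving out WT replicate 2 gave a difference of 0.16, leaving out cKO replicate 2 gave 0.21, and it was between 0.34 and 0.44 in all other alternatives. As levels, the exosome genes remained the lower set in every library: their median of log2(RPKM + 1) was 2.95 and 3.09 in cKO, against 2.37 and 2.39 in WT, while that of cleavage and polyadenylation factors was 3.49 and 3.55 in cKO, against 3.01 and 2.96 in WT. The 2 sets overlapped widely gene by gene, with changes from 0.03 (Exosc7) to 1.03 (Exosc6) in the exosome and from -0.23 (Pcf11) to 1.01 (Cstf1) in cleavage and polyadenylation. The difference between the sets was not tested.

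How many of the 30 genes counted as higher depended on scaling, and the median tested gene was itself 0.27 log2 units higher in cKO. Median-ratio scaling, which took that median to -0.01, left 10 of the 30 higher and 1 lower, beside 14.8% and 14.2% of tested genes. Quantile normalization gave 10 and 1, beside 15.9% and 16.2%, and cyclic loess normalization 10 and 1, beside 16.8% and 15.3%. The 10 were the same under all 3: Exosc1, Exosc2, Exosc3, Exosc6, Exosc10, and Dis3 of the exosome, Cpsf2, Cpsf6, and Cstf1 of cleavage and polyadenylation, and Xrn2. The gene that was lower was Pcf11 each time. The other 6 genes that had passed, Exosc8, Exosc9, Cpsf4, Cpsf7, Nudt21, and Papola, kept a positive log2 fold change under all 3 scalings without passing. Among genes that had not passed, Exosc7 and Sympk turned negative under all 3, and Cpsf1 and Clp1 under median-ratio and quantile scaling. Of the 10, all but Exosc2 passed in every one of the 15 alternatives.

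**Figure D4:**
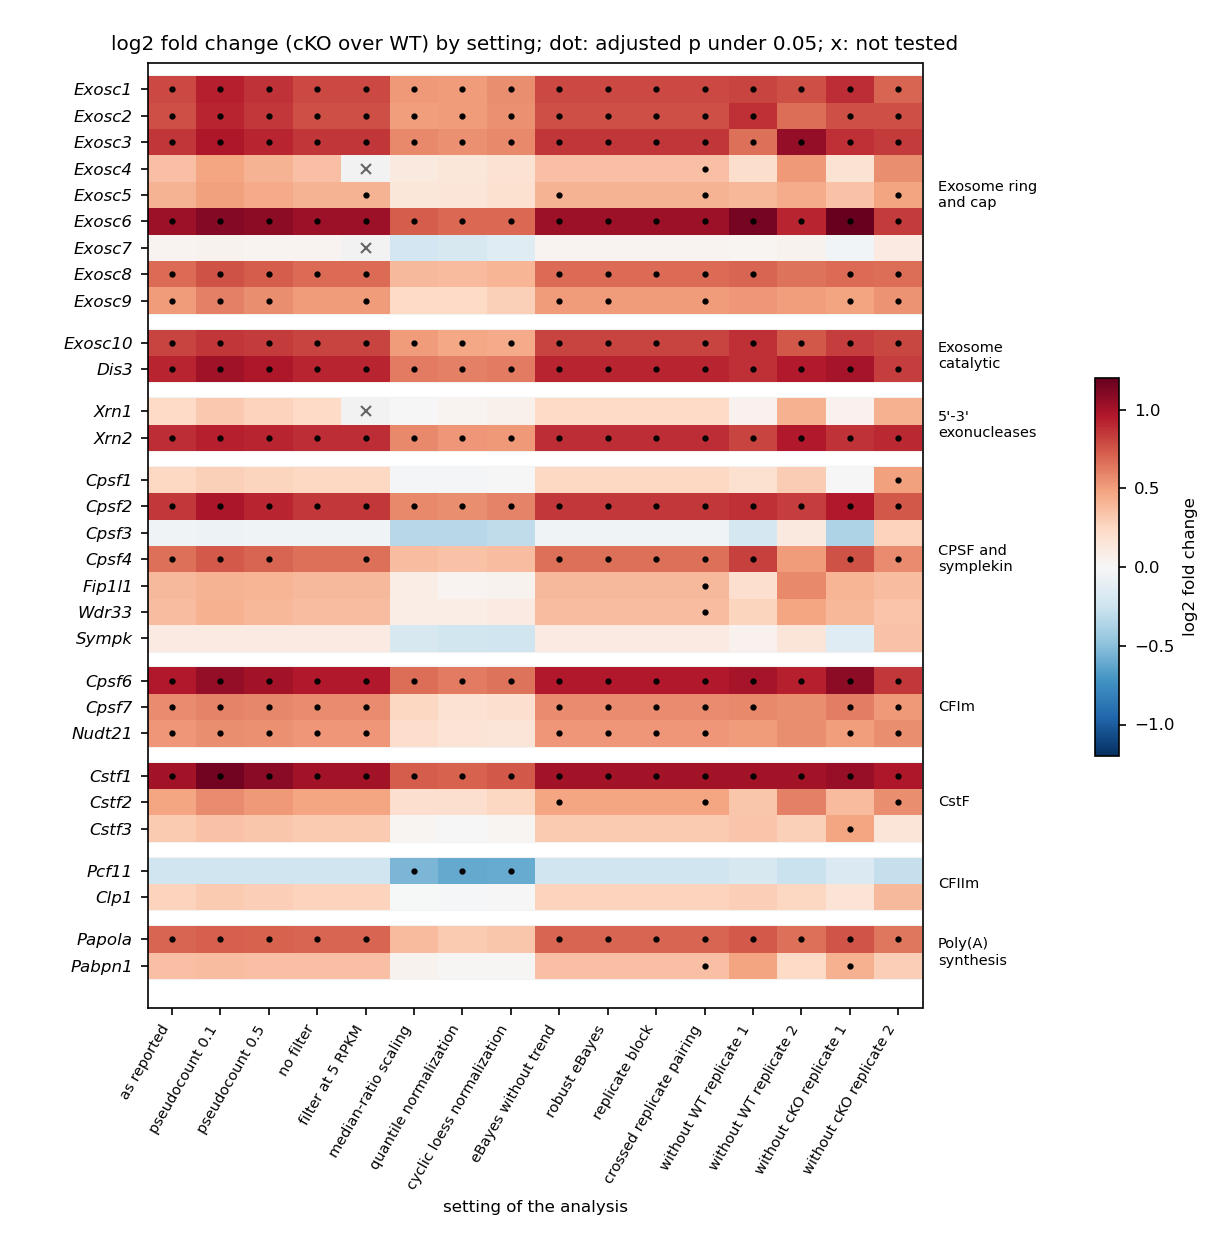
Log2 fold change, cKO over WT, of the 30 genes (lines) under the reported analysis and 15 alternatives (columns), in color, with a dot where the adjusted p was under 0.05 and a cross where the gene was not tested. The 3 scalings are paler, with 10 genes higher and Pcf11 lower, and the column without WT replicate 2 also has 10 genes higher.

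Several of these genes share a promoter region with a neighbor that is transcribed the other way. A protein-coding start on the other strand lay within 1000 bases upstream of 8 of the 30 genes (26.7%), beside 9.98% of 11068 tested genes with an annotated start. Among them, Exosc1 and its neighbor Zdhhc16 were both higher (log2 fold change 0.66 for Zdhhc16), as were Cpsf4 and Ptcd1 (0.52 for Ptcd1) and Cstf1 and Aurka (0.51 for Aurka). Exosc8 and Nudt21 were higher while their neighbors Alg5 (log2 fold change 0.21) and Ogfod1 (0.07) did not pass. For Exosc5 with Bckdha and Exosc7 with Zdhhc3 neither gene passed, and for Sympk the neighbor Foxa3 was not tested. Of the 7 pairs that could be compared, both genes were thus higher in 3, where 35.9% of all tested genes were higher. The share of such pairs among all tested genes was not computed.

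Other genes of RNA decay and end processing were examined for context, in 5 lists of 78 genes, of which 76 were tested. In all, 27 of the 76 were higher (35.5%) and 2 lower, with a median log2 fold change of 0.32, close to the share and median of all tested genes. Under median-ratio, quantile, and loess scaling 8, 9, and 9 were higher and 5, 6, and 6 lower, beside the shares of all tested genes under these scalings given above. Without WT replicate 1, 14 were higher, beside 22.0% of tested genes. Of the exosome cofactors and related nucleases 7 of 16 were higher. They included Skiv2l2, the nuclear helicase that feeds the exosome (13.7 and 14.3 RPKM in cKO, 7.84 and 8.12 RPKM in WT, log2 fold change 0.74), Eri1, a 3′ to 5′ exonuclease (0.75), and Mphosph6, which docks the helicase to the complex (0.64). Of the decapping genes 5 of 9 were higher, with Dcp2, the decapping enzyme, at 5.45 and 6.22 RPKM in cKO, against 2.56 and 2.58 RPKM in WT (log2 fold change 0.93), Edc4, a decapping scaffold, at 0.81, and Patl1 at 0.66. The deadenylase list also held other subunits of these complexes and the Tob and Btg genes. Of it 7 of 18 were higher, led by the Ccr4-Not subunits Cnot9 (log2 fold change 0.79) and Cnot7 (0.74) and by Pan3 (0.68). On the same list 1 was lower, the antiproliferative gene Tob1 (-0.60), which is not itself a deadenylase and was picked after its values were seen. Of further end processing and poly(A) factors 7 of 19 were higher, among them Cstf2t, the autosomal paralog of Cstf2, at 6.69 and 6.16 RPKM in cKO, against 2.80 and 2.57 RPKM in WT (log2 fold change 1.01), the phosphatase gene Ppp1cb (0.74), and Scaf8 (0.83). Integrator, which cleaves small nuclear RNA and other nascent transcripts and whose subunits Ints11 and Ints9 are paralogs of Cpsf3 and Cpsf2, had 1 of 14 higher, Ints8 (log2 fold change 0.64), and 1 lower, Ints6 (-0.42), while Ints14 (0.53) did not pass.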

How the data were processed

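RNA-Seq of sorted FAPs was available for 2 cKO and 2 WT libraries. The authors deposited 1 table of RPKM values, which scale reads to transcript length and to M reads of the library, with 1 RefSeq accession per gene, all columns of which were used. Tools named in the submitters' notes were TopHat2 (version 2.0.9), edgeR, and bedtools, and 2 builds, mm10 and mm9, were named with no role. What annotation and counting rule made the values, and whether strand was used, is not given in the sources used here. Since RPKM is relative to the library total, abundant genes that change shift the values of all others.

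The 11197 genes with 1 RPKM or more in any 2 of the libraries were transformed to log2(RPKM + 1), on which changes of genes with low levels appear smaller. In R (version 4.3.3), limma (version 3.58.1) estimated cKO minus WT with a trended eBayes spread, two-sided, and Benjamini-Hochberg adjustment over all genes tested at 0.05. The ± values beside log2 fold changes are standard errors. Depth was estimated from the lowest values by taking them as 0.4 reads, over 1088 genes, and was used to estimate the reads behind a value. The part of depth in the gaps between replicates was not tested. Positions came from the GENCODE annotation of GRCm38 and promoters from RefSeq (GRCm38.p6), neither of which may be the authors' build.

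All 30 genes are named, with values in each library, together with the 3 tested genes of smallest p from each other list, Bap1, Smn1, and the markers of the sort. The genes and lists were chosen with earlier results of these data known. Alternatives were pseudocounts of 0.1 and 0.5, no filter or one at 5 RPKM, 3 scalings, eBayes without trend or robust, the replicate block, and leaving out each library. The crossed pairing was added after the data were seen. The fit was tested on simulated data. Figures were drawn with matplotlib (version 3.10.9).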

Additional observations from a re-analysis of the deposited data

How the results depend on the processing

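Counts of calls moved with scaling, with the libraries left out, and with the pairing. Under median-ratio, quantile, and cyclic loess scaling, 10 of the 30 genes were higher each time and 1 lower, and of the cleavage and polyadenylation factors 3 were higher and 1 lower. Of the other RNA decay and end processing genes, 8, 9, and 9 were then higher and 5, 6, and 6 lower. With no filter 0 of them were lower, beside 2.57% of all 20027 genes. Leaving out 1 library gave 10 to 19 of the 30 higher, 5 to 9 exosome subunits, 4 to 9 cleavage and polyadenylation factors, a difference between their medians of 0.16 to 0.36, and, of the other genes, 14 to 29 higher and 0 to 6 lower. The lone library was there assumed to vary like the other group, and the lowest counts of the 30 genes came without WT replicate 2 and the lowest of the other genes higher without WT replicate 1. Among genes that did not pass, Exosc7 turned to log2 fold changes of -0.22, -0.20, and -0.15 under median-ratio, quantile, and loess scaling, and Sympk to -0.20, -0.23, and -0.24. Cpsf1 turned to -0.028 and -0.0188 and Clp1 to -0.0083 and -0.0149 under median-ratio and quantile scaling. Without 1 library, Exosc7 ranged from -0.0401 to 0.105, Cpsf3 from -0.37 to 0.28, and Sympk from -0.15 to 0.36. Over the single genes and alternatives, 387 values kept direction and side of the threshold, 29 lost their call, 17 gained one, and 14 changed direction. The causes were not tested. Same-numbered libraries of the 2 groups did not deviate together (r = -0.304 for replicate 1 of each). Estimated depth ran crosswise to the numbers. It was 90.4 M reads in cKO replicate 1 and 89.1 M in WT replicate 2. In cKO replicate 2 it was 41.4 M, and in WT replicate 1 it was 46.5 M. With depth crossed in this way, r cannot tell whether the numbers pair the samples. With the replicate block 15 of the 30 genes were higher, Exosc9 being lost, beside 31.7% of tested genes. With the crossed replicate pairing 22 were higher, including 11 cleavage and polyadenylation factors, and of the other genes 4 were lower, beside 42.9% of tested genes higher and 9.72% lower. The crossed pairing also groups the libraries by estimated depth, and the part of depth in these counts was not tested. The number of libraries, 2 a group, limits what can be called, and for the genes with fewest reads (131.7 for Exosc7) counting error adds to the spread.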
